A study of Mus musculus with 6 samples.

Results

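Hsp70 and Hsp110 chaperones are the subject here: 10 genes of the mouse, Hspa4l, Hspa4, Hsph1, Hspa2, Hspa5, Hspa8, Hspa9, Hspa12a, Hspa13 and Hspa14, out of 22180 genes that had a row with a single gene symbol. They were taken by symbol, and where a gene had several rows only the brightest on average over the 6 arrays was kept. All 10 had a row, and all 10 lay above the limit for dim genes, a log2 value of 5.02. The set was chosen by measured values: it was put together around Hspa4l because its signal was about 2-fold higher in the mutant than in control. The difference of every member between mutant and control belongs to that same comparison and is given as a description, without a test.

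The samples were dissected cortices of mouse embryos at stage E12.5, 3 double knock-outs (DKO) of genotype Lats1F/F;Lats2F/F;Nestin-Cre and 3 controls, each from its own embryo per the labels. The labels say nothing more of the control genotype, so whether controls carried floxed alleles or the Cre is not given in the sources used here. Lats1 and Lats2 are the Hippo kinases that restrain the coactivators YAP and TAZ, and Nestin-Cre acts in neural progenitors and the cells they give rise to, so blood, vessel and meningeal cells in the dissected tissue are expected to keep both kinases. Total RNA of each cortex was read on 1 whole-transcript array, and the deposited values are log2 signals made by RMA. RMA sets the probe signals of all arrays to the same distribution before summarizing them, and the deposited array medians were 5.94 to 5.97.

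Hsp70 proteins bind exposed hydrophobic stretches of unfolded proteins and release them in a cycle driven by ATP. Hsp40 (J-domain) proteins start the hydrolysis step, and nucleotide exchange factors end the cycle by removing ADP. Hsp110 proteins are large relatives of Hsp70 that serve as exchange factors for it and hold unfolded chains in solution. Among the members, Hspa4l, Hspa4 and Hsph1 belong to the Hsp110 group. Hspa8 is the constitutive Hsp70 of the cytosol, which also strips clathrin from vesicles, Hspa2 is a cytosolic Hsp70 best known from male germ cells, and Hspa14 is a ribosome-associated Hsp70. Hspa5 (BiP) works in the endoplasmic reticulum (ER) and Hspa9 (mortalin) in mitochondria. Hspa13 is a microsomal Hsp70-like ATPase, and Hspa12a is a distant relative with an atypical ATPase domain.

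The upstream sequences of the 3 Hsp110 genes and of Hspa5 are shown because Hspa4l and its nearest relatives are set beside each other below, and because heat shock and ER stress act on this family through short promoter elements. Of the 10 members, 7 had an entry in the RefSeq promoter table of build GRCm38.p6, and Hspa8, Hspa9 and Hspa13 are named only. Each sequence is the 250 bases before an annotated start, written 5′ to 3′ on the strand of the gene. The windows are chr3:40745363-40745612 on the plus strand for Hspa4l, chr11:53300480-53300729 on the minus strand for Hspa4, chr5:149636337-149636586 on the minus strand for the first start of Hsph1, and chr2:34771840-34772089 on the plus strand for Hspa5. Capitals mark the motif matches named in the next paragraph, and a sequence without capitals held none.
Hspa4l: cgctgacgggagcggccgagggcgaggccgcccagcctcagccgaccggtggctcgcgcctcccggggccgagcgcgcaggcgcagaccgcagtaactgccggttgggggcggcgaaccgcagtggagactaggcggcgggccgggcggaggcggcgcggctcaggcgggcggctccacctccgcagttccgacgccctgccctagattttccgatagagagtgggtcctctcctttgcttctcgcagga
Hspa4: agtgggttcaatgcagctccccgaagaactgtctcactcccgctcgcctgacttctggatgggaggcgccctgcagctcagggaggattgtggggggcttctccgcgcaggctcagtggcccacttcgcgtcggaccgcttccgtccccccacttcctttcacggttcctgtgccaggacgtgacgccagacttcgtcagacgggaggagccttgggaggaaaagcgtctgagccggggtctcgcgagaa
Hsph1: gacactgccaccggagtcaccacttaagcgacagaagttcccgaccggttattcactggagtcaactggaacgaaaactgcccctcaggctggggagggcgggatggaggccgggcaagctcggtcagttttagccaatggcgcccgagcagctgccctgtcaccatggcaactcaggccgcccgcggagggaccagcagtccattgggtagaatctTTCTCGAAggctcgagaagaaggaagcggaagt
Hspa5: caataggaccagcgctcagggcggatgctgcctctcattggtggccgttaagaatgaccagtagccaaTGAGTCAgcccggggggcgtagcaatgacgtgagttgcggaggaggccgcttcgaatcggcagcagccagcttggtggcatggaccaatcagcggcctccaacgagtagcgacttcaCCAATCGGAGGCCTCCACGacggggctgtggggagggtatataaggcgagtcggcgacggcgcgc

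The windows were searched on both strands for the heat shock element as 2 units (GAANNTTC or TTCNNGAA) or 3 units (both forms overlapping by a shared unit, so that every 3-unit match contains both), the TEAD motif GGAATG, the AP-1 motif TGANTCA and the ER stress element, CCAAT followed at a fixed spacing by CCACG. Hspa4l and Hspa4 held no match to any of them. Hsph1 held TTCNNGAA, beginning 33 bases before the start, a form found in 7.19% of the 32536 distinct windows of the table. Hspa5 held the ER stress element, beginning 65 bases before the start, and this element occurred in 0.114% of all windows. Hspa5 also held the AP-1 motif, 182 bases before the start, which 6.73% of windows hold. The 3-unit heat shock element occurred in 0.47% of windows, GAANNTTC in 6.72% and the TEAD motif in 12.6%, and the windows of the 7 members held none of these. The Hspa4l window was 73.6% G and C, against 64% for Hspa4, 60% for Hsph1 and 62.4% for Hspa5. A match is only a run of letters, and nothing was measured of binding at these places. The absence of a match covers only these 250 bases, and sites farther away were not searched.

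The targeted genes were read first. Lats1 was lower in DKO cortex, at 7.82, 7.82 and 7.74 in the 3 DKO arrays, against 8.81, 8.34 and 8.98 in the control arrays, a log2 difference of -0.91 ± 0.145 (SE, limma adjusted p 0.0189). Lats2 stood at 7.36, 7.18 and 7.27 in DKO, against 7.16, 6.84 and 7.11 in control, a difference of 0.24 ± 0.096 (SE, limma adjusted p 0.285), and neither the deleted exons nor the probe positions are given in the sources used here. The Lats1 call was lost without control 1 (-0.86, adjusted p 0.0809), control 3 (-0.78, adjusted p 0.0571), DKO 1 (-0.93, adjusted p 0.0875) or DKO 3 (-0.89, adjusted p 0.0811). Over all 16724 genes tested, 228 were called higher and 60 lower at an adjusted p under 0.05, or 1.72% in either direction, and the median difference was -0.0282. Cortical markers were present in both groups: the mean log2 value of 10 apical progenitor genes was 9.89 to 9.94 in DKO and 9.88 to 9.91 in control arrays. Of these 10 genes 1 was called higher, the glutamate transporter gene Slc1a3 (0.40, limma adjusted p 0.0397), and 1 lower, the Notch effector Hes5 (-0.90, limma adjusted p 0.00197).

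Hspa4l stood apart from the other members. Only 1 row carried its symbol. Its log2 values were 8.54, 8.44 and 8.48 in DKO 1, 2 and 3, against 7.40, 7.31 and 7.46 in control 1, 2 and 3. All 3 DKO embryos lay about a full log2 unit above all 3 controls, and the spread within each group was small, with means of 8.48 ± 0.05 in DKO and 7.39 ± 0.0795 in control (SD, n = 3 each). The difference was 1.09 ± 0.067 (SE), or 2.13-fold, which placed Hspa4l 37th in size among the genes called higher, of which 51 rose 2-fold or more. Hspa4l was the only member of the 10 past the threshold, beside 1.72% of all genes, and nothing is read from this count because the same comparison chose the gene. In a dissected tissue a change in the share of a cell type and a change of RNA per cell cannot be told apart, here or for the genes that follow. The difference of Hspa4l stayed between 1.05 and 1.13 in 15 other settings of the fit, including those that left out each array in turn. Those that changed the filter, the variance model, the replicate block or the averaging of rows could not move it.

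The nearest relatives of Hspa4l showed far smaller differences. Hspa4, the namesake Hsp110 gene, had log2 values of 10.39, 10.32 and 10.51 in DKO, against 10.39, 10.37 and 10.36 in control cortex. The DKO values spanned all the control values, and the difference was 0.03 ± 0.068 (SE). Hsph1, the Hsp110 gene best known for its induction by heat, had 9.09, 8.92 and 9.01 in DKO, against 8.89, 8.89 and 9.09 in control. Its groups overlapped too, since control 3 was as high as the highest DKO array, and its difference was 0.05 ± 0.079 (SE). In the same 6 embryos, therefore, the difference of Hspa4l was 2.13-fold and those of Hspa4 and Hsph1 were 1.02-fold and 1.04-fold. The panels by array show this contrast within the Hsp110 group.

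**Figure D1:**
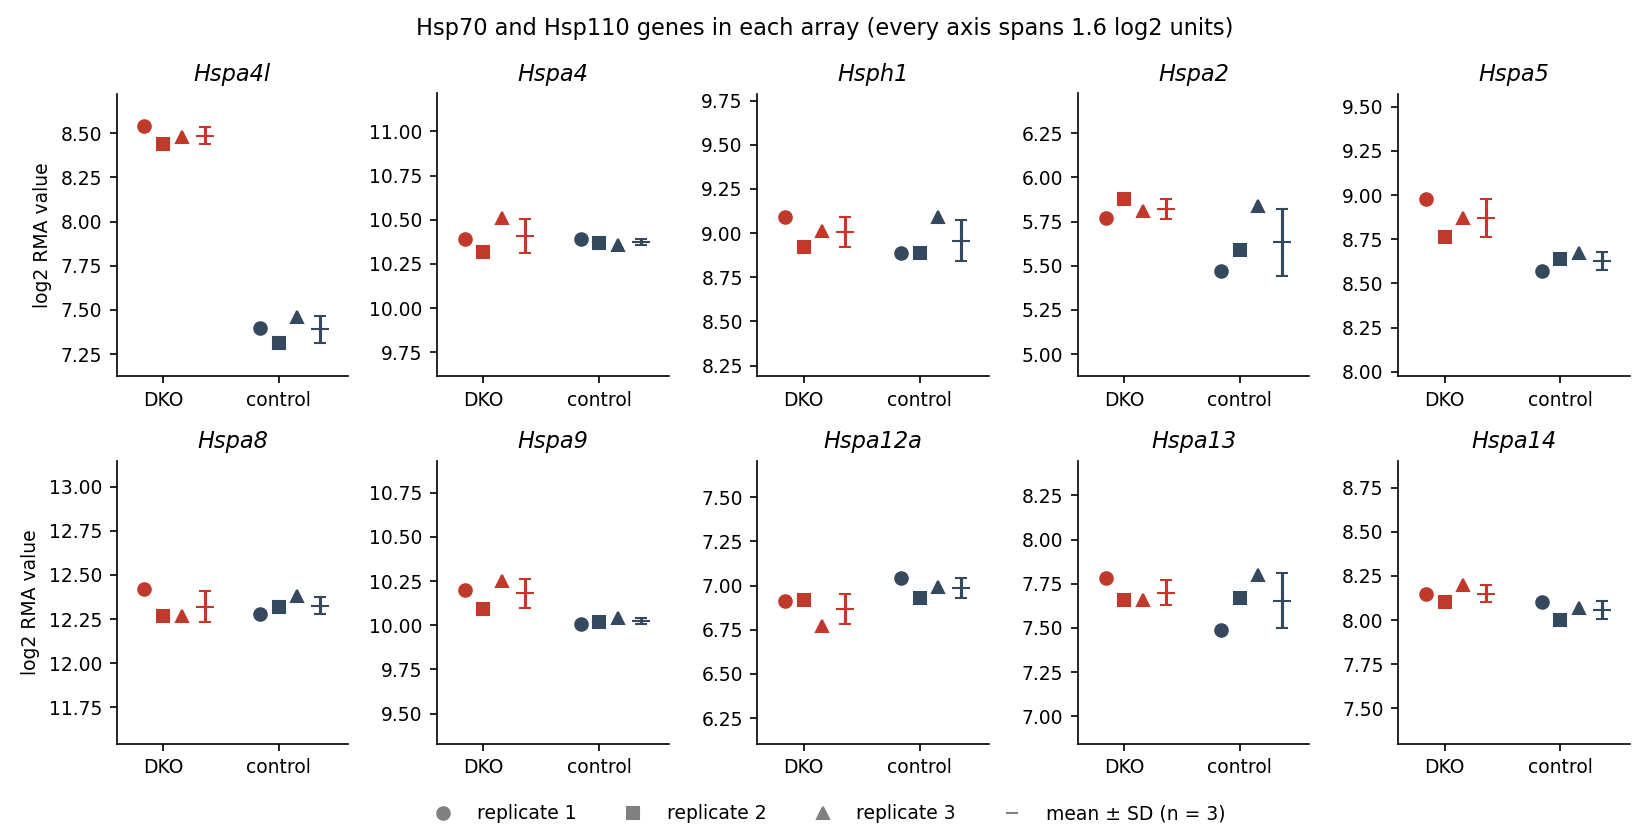
Log2 RMA values of the 10 Hsp70 and Hsp110 genes in each array, DKO at the left and control at the right of each panel, with replicates 1 to 3 as circle, square and triangle and the mean ± SD (n = 3) beside them. Hspa4l lies between 8.44 and 8.54 in DKO and between 7.31 and 7.46 in control, while in 6 of the other panels the groups overlap.

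The groups of the cytosolic Hsp70 genes overlapped. Hspa8 had log2 values of 12.42, 12.27 and 12.27 in DKO, against 12.28, 12.32 and 12.38 in control, a difference of -0.01 ± 0.069 (SE). Its sign changed in 7 of 15 other settings, and those of filter, variance model and replicate block among the 15 could not change it. Hspa8 was also read by 3 further rows with its symbol alone, and these differed by 0.03, 0.06 and 0.05 on the log2 scale with overlapping groups. Processed copies of Hspa8 elsewhere in the genome could share probes with these rows, so which locus each of them reads is uncertain. Hspa14 had 8.15, 8.10 and 8.20 in DKO, against 8.10, 8.0 and 8.07 in control, and its groups met at 8.10. Hspa2 had the widest control spread of the members: its values were 5.77, 5.88 and 5.81 in DKO, against 5.47, 5.59 and 5.84 in control. Control 3 reached the DKO range for Hspa2, and the difference was 0.19 ± 0.096 (SE), or 1.14-fold. The values of Hspa2 lie not far above the limit for dim genes.

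Hspa5 of the ER and Hspa9 of mitochondria were a little higher in every DKO array than in every control array. Hspa5 had log2 values of 8.98, 8.76 and 8.87 in DKO, against 8.57, 8.64 and 8.67 in control cortex. No DKO array overlapped a control array, and the difference was 0.24 ± 0.074 (SE), or 1.18-fold. Hspa9 had 10.20, 10.09 and 10.25 in DKO, against 10.01, 10.02 and 10.04 in control, again with no overlap, and a difference of 0.16 ± 0.065 (SE), or 1.11-fold. The controls of Hspa9 were among the tightest values of the set, with an SD of 0.0181 (n = 3). Over all genes tested, 8.22% had all 3 DKO arrays above all 3 control arrays and 13.4% had them all below. Of the members 3 (Hspa4l, Hspa5 and Hspa9) showed the first pattern. Nothing is read from this count, since the comparison that chose Hspa4l fixed its place in it.

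Hspa12a showed the second pattern. Its log2 values were 6.91, 6.92 and 6.77 in DKO, against 7.04, 6.93 and 6.99 in control, a difference of -0.12 ± 0.068 (SE). The gap between the groups was narrow, since the highest DKO array lay at 6.92 and the lowest control at 6.93. A further row that carried the symbols of Hspa12a and Gm19925 differed by -0.02 with overlapping groups. Hspa13 had 7.78, 7.66 and 7.66 in DKO, against 7.49, 7.67 and 7.80 in control, with a wide control range that held every DKO value.

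Of the 9 members other than Hspa4l, the differences lay between -0.12 and 0.24 with a median of 0.0511. The residual SD of the members ran from 0.0504 for Hspa14 to 0.14 for Hspa2, around the median of 0.0951 over all genes tested. Control 3 was the highest control array for 7 of the 10 members, while 38.7% of all genes tested had control 3 as their highest control. Hspa2, Hspa13 and Hsph1 had the largest control SDs of the members, at 0.189, 0.154 and 0.115 (n = 3 each).

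**Figure D2:**
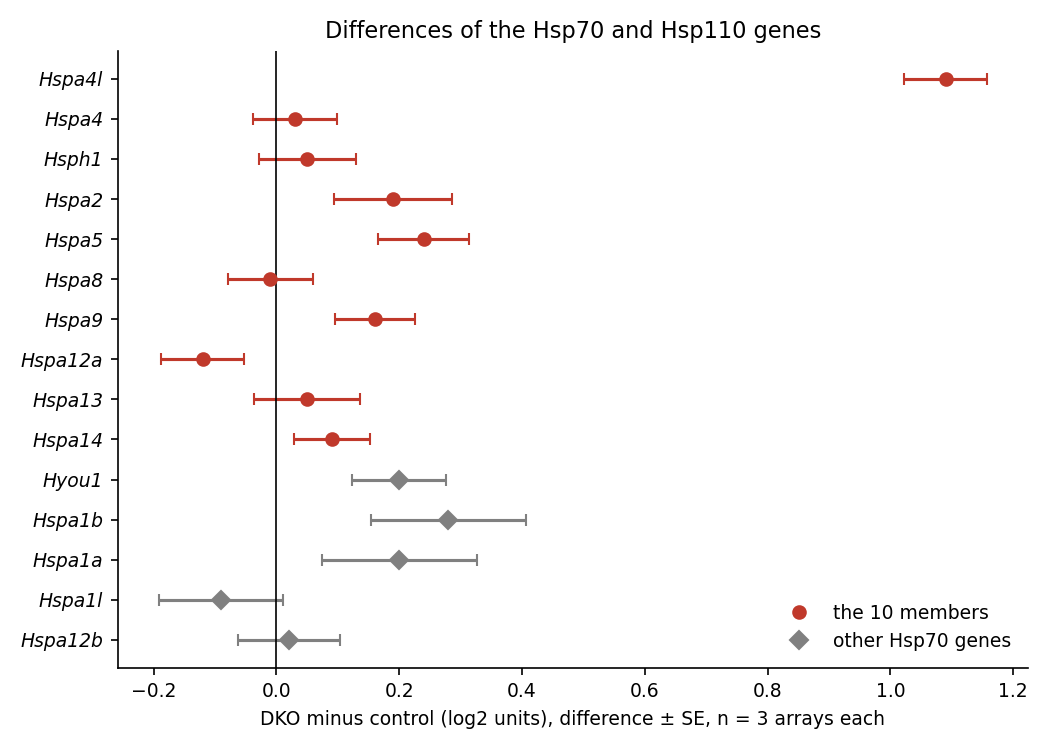
Difference between DKO and control (log2 units, point, with the SE as a bar, n = 3 arrays each) for the 10 members as circles and 5 other Hsp70 genes as diamonds. Hspa4l lies at 1.09, and the other 9 members lie between -0.12 and 0.24.

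The 5 other Hsp70 genes had no call. Hyou1, the Hsp110-like chaperone of the ER, had log2 values of 8.61, 8.41 and 8.54 in DKO, against 8.39, 8.23 and 8.33 in control, a difference of 0.20 ± 0.077 (SE, limma adjusted p 0.261). The stress-inducible pair Hspa1a and Hspa1b, classical targets of the heat shock factor Hsf1, are near-identical copies whose probes can cross, so their rows are uncertain. Hspa1b had 6.51, 6.19 and 6.63 in DKO, against 6.19, 6.32 and 5.98 in control (difference 0.28 ± 0.126 SE, limma adjusted p 0.34). Hspa1a had 5.25, 5.22 and 5.69 in DKO, against 5.26, 5.23 and 5.06 in control (difference 0.20 ± 0.126 SE, limma adjusted p 0.501). A row shared by both copies differed by 0.03. DKO 2 lay within the control range for Hspa1b, and both DKO 1 and DKO 2 did for Hspa1a, whose difference was 0.05 without DKO 3 (limma adjusted p 0.825).

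The partners of Hsp70 were taken from lists of Hsp40 proteins, exchange factors, the Hsp90 system, small heat shock proteins, chaperonins, ER and mitochondrial chaperones, and heat shock factors with stress-inducible targets. Together with the 5 other Hsp70 genes above they named 136 genes besides the members, of which 123 had a row and 119 were tested. A gene that stood in several lists was counted once here. By limma 0 of the 119 were called higher and 0 lower over all genes, where 1.36% of all genes tested were higher and 0.359% lower. At an unadjusted p under 0.05 there were 19 higher and 4 lower, in a table where 15.6% of genes passed that limit in either direction. Beside the counts of higher and lower means in the lists that follow, 39.8% of all genes tested had a higher mean in DKO. The median difference of the 119 was 0.03, with a range from -0.24 to 0.46. With a trended variance 4 partners were called higher, 1 was called with array weights, 1 with a stricter filter and 2 without DKO 2.

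Hsp40 and exchange factor genes showed no common direction. Of 40 tested Hsp40 genes, 18 had a higher and 22 a lower mean in DKO, with a median of -0.01. The smallest p values belonged to Dnajc21, a nuclear and cytosolic J protein, at 0.21 ± 0.063 (SE, limma adjusted p 0.162), to Dnajc10, an ER disulfide reductase, at 0.19 ± 0.057 (SE, limma adjusted p 0.162), and to Dnajc1, an ER membrane J protein, at 0.26 ± 0.092 (SE, limma adjusted p 0.224). Among 14 exchange factors and Hsp70 regulators 6 were higher and 8 lower, with a median of -0.06 and 0 calls. Bag6, which guards membrane proteins on their way to the ER, had 10.07, 10.08 and 10.17 in DKO, against 10.28, 10.25 and 10.37 in control (-0.19 ± 0.064 SE, limma adjusted p 0.206). Bag4 differed by -0.13 ± 0.062 (SE, limma adjusted p 0.348), and Tomm34, a cochaperone of mitochondrial import, by -0.13 ± 0.068 (SE, limma adjusted p 0.404).

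The Hsp90 system and the small heat shock proteins had no call either. Of 16 tested genes of the Hsp90 system, mostly cochaperones, 11 had a higher mean in DKO, with a median of 0.02. Hsp90ab1 was not among the 16. Hsp90aa1, the inducible cytosolic Hsp90, had 9.40, 9.19 and 9.34 in DKO, against 9.04, 9.13 and 9.11 in control, a difference of 0.22 ± 0.072 (SE, limma adjusted p 0.202). Hsp90b1, the Hsp90 of the ER, differed by 0.28 ± 0.094 (SE, limma adjusted p 0.206), and Fkbp4, an Hsp90 cochaperone, by 0.14 ± 0.071 (SE, limma adjusted p 0.40). Of 8 small heat shock proteins 6 were higher. Hspb8, a partner of Bag3, had 7.75, 6.97 and 7.03 in DKO, against 6.65, 6.88 and 6.85 in control, so that DKO 1 stood well above the other arrays (0.46 ± 0.189 SE, limma adjusted p 0.296). Cryab, alpha B-crystallin, had 6.60, 6.13 and 6.62 in DKO, against 6.15, 6.15 and 5.98 in control (0.36 ± 0.128 SE, limma adjusted p 0.232), and its difference was 0.51 (adjusted p 0.0217) without DKO 2. With all rows of Cryab averaged the difference was 0.12 (limma adjusted p 0.512). Hspb6 differed the other way, by -0.24 ± 0.078 (SE, limma adjusted p 0.193).

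Heat shock factors and their inducible targets had a median of 0.05 over 19 tested genes, with 0 calls. Of these, 13 had a higher and 6 a lower mean in DKO, and most also stood in other partner lists. Hsf1 was not among the 19. The smallest p values here belonged to Hsp90aa1 (0.22) and Cryab (0.36), both given above, and to Hsf2. Hsf2, a heat shock factor active in the developing brain, had 9.03, 9.0 and 8.99 in DKO, against 9.16, 9.09 and 9.28 in control (-0.17 ± 0.068 SE, limma adjusted p 0.286). Mitochondrial chaperones, the partners of Hspa9, had a median of -0.01 over 15 genes, with 7 higher, 8 lower and 0 past an unadjusted p of 0.05. Among them Clpb, a disaggregase, differed by 0.16 ± 0.095 (SE, limma adjusted p 0.467), Grpel2, an exchange factor for Hspa9, by -0.10 ± 0.059 (SE, limma adjusted p 0.477), and the chaperonin Hspd1 (Hsp60) by 0.14 ± 0.083 (SE, limma adjusted p 0.481). Of 15 chaperonin and prefoldin genes 13 had a higher mean, with a median of 0.08. The smallest p there belonged to Cct8, a subunit of the cytosolic chaperonin, at 0.17 ± 0.071 (SE, limma adjusted p 0.312), and Pfdn1, a prefoldin subunit, differed by 0.10 ± 0.071 (SE, limma adjusted p 0.544).

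ER chaperones were the partner list with the most uniform direction. Of 18 tested genes 17 had a higher mean in DKO (39.8% of all genes did), 10 had all DKO arrays above all control arrays (8.22% of all genes did) and 12 had an unadjusted p under 0.05, but 0 passed over all genes. Their median difference was 0.19, beside 0.24 for Hspa5 and -0.0282 over all genes tested. The lists overlap: Hyou1, Dnajc10, Dnajc3, Dnajb9, Dnajb11, Sec63, Hsp90b1 and Sil1 also stood in lists given above. Their values there and here are the same measurements. Creld2, an ER stress-inducible protein, had 9.16, 8.99 and 9.22 in DKO, against 8.80, 8.80 and 8.81 in control, a difference of 0.32 ± 0.073 (SE, limma adjusted p 0.0807). Sdf2l1, which works with Hspa5 in the ER, had 8.65, 8.66 and 8.65 in DKO, against 8.46, 8.42 and 8.36 in control (0.24 ± 0.059 SE, limma adjusted p 0.096). Manf, a secreted ER stress protein, differed by 0.24 ± 0.068 (SE, limma adjusted p 0.139). Dnajb9, an Hsp40 that represses the stress sensor Ire1 through Hspa5, was chosen after its value was seen as the only ER gene with a lower mean in DKO, at -0.13 ± 0.066 (SE, limma adjusted p 0.393). Creld2 passed the threshold with a trended variance (adjusted p 0.0309), array weights (0.0436), a stricter filter (0.0452) and without DKO 2 (0.0323), and Sdf2l1 with a trended variance (0.0483).

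**Figure D3:**
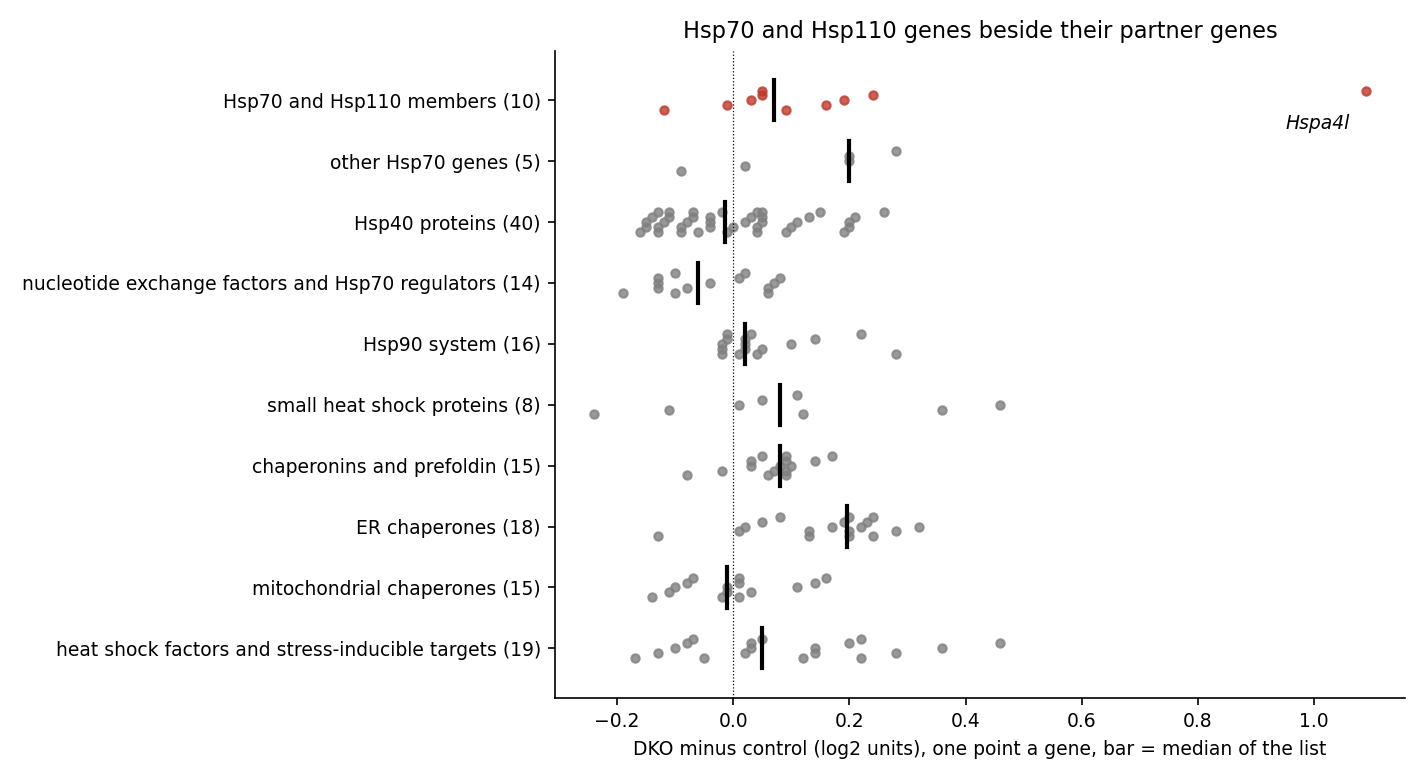
Difference between DKO and control (log2 units) for the 10 members in red and for the tested genes of 9 partner lists in grey, 1 point a gene, with the median of each list as a bar and the number of genes in parentheses. The ER list has its median at 0.19 and the Hsp40 list at -0.01, and no partner gene reaches the 1.09 of Hspa4l. The lists overlap, and a gene of several lists has a point in each.

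The genes beside Hspa4l on mouse chromosome 3 were examined next, in the RefSeq order of assembly GRCm38.p6. Its nearest tested neighbour on one side was Intu, a planar polarity effector needed for primary cilia, and the nearest on the other side was Plk4, the kinase that starts centriole duplication. Intu rose: its log2 values were 7.58, 7.50 and 7.60 in DKO, against 6.60, 6.76 and 6.91 in control, a difference of 0.80 ± 0.085 (SE, limma adjusted p 0.00257), or 1.75-fold. All DKO arrays lay above all control arrays, and the call held in each of 15 other settings, with adjusted p up to 0.0194. Plk4 had 8.95, 8.86 and 9.02 in DKO, against 8.76, 8.70 and 8.92 in control (0.15 ± 0.079 SE, limma adjusted p 0.414), and its groups overlapped. Slc25a31, which lies between Intu and Hspa4l and was named after its value was seen, was too dim to be tested, at 4.53 to 4.58 in DKO and 4.50 to 4.60 in control.

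The next neighbours did not pass the test. Fat4, an atypical cadherin of planar polarity, had 9.0, 8.92 and 8.96 in DKO, against 9.22, 9.16 and 9.40 in control, a difference of -0.30 ± 0.077 (SE), whose limma adjusted p was 0.11, or 0.0485 when the variance was trended. With all rows of Fat4 averaged the difference was -0.15 (limma adjusted p 0.363). Ankrd50 differed by 0 ± 0.057 (SE, limma adjusted p 0.981), Mfsd8, a lysosomal membrane protein, by -0.11 ± 0.084 (SE, limma adjusted p 0.59), and Gm10731 by 0.09 ± 0.117 (SE, limma adjusted p 0.766). Around all 10 members, 3 tested neighbours on each side gave 60 neighbours, of which 1 (Intu) was called higher and 0 lower, beside 1.72% of all genes tested called in either direction.

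**Figure D4:**
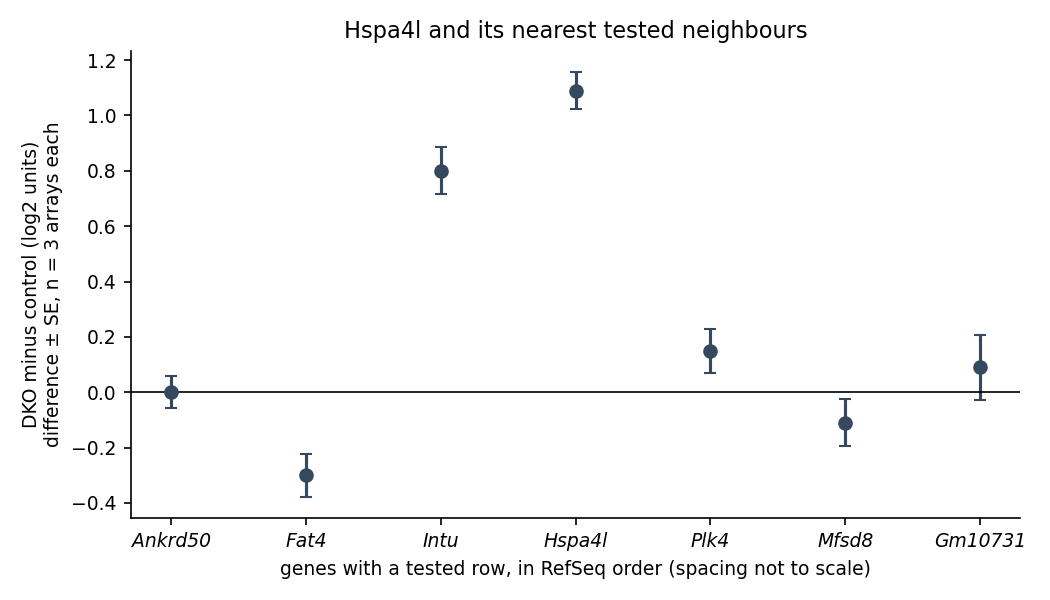
Difference between DKO and control (log2 units, point, SE as bar, n = 3 arrays each) for Hspa4l and the 3 nearest tested genes on each side, in RefSeq order and not to scale. Hspa4l lies at 1.09 and Intu at 0.80, and the other 5 genes lie between -0.30 and 0.15.

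The genes whose 6 array values were most like those of Hspa4l were found by Pearson correlation over the 6 arrays among all genes tested. They were Cdh6, a cadherin (r = 0.999), Ptpn13, a tyrosine phosphatase (0.998), Fbxl7, an F-box protein (0.997), Nceh1, an ester hydrolase (0.997), and Steap2, a metalloreductase (0.996). The 6 points fall into the DKO and control groups, so such values mostly record that a gene was higher in DKO with little spread, and they describe these arrays only. Cdh6 had 9.16, 9.05 and 9.07 in DKO, against 8.31, 8.27 and 8.34 in control, a difference of 0.79 ± 0.062 (SE). Ptpn13 had 8.58, 8.34 and 8.50 in DKO, against 7.17, 7.08 and 7.25 in control, a difference of 1.31 ± 0.081 (SE). In both, as in Hspa4l, DKO 1 was the highest DKO array and control 3 the highest control. The differences of the 5 genes ran from 0.53 for Nceh1 to 1.31 for Ptpn13, and that of Nceh1 was 0.29 when all its rows were averaged.

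**Figure D5:**
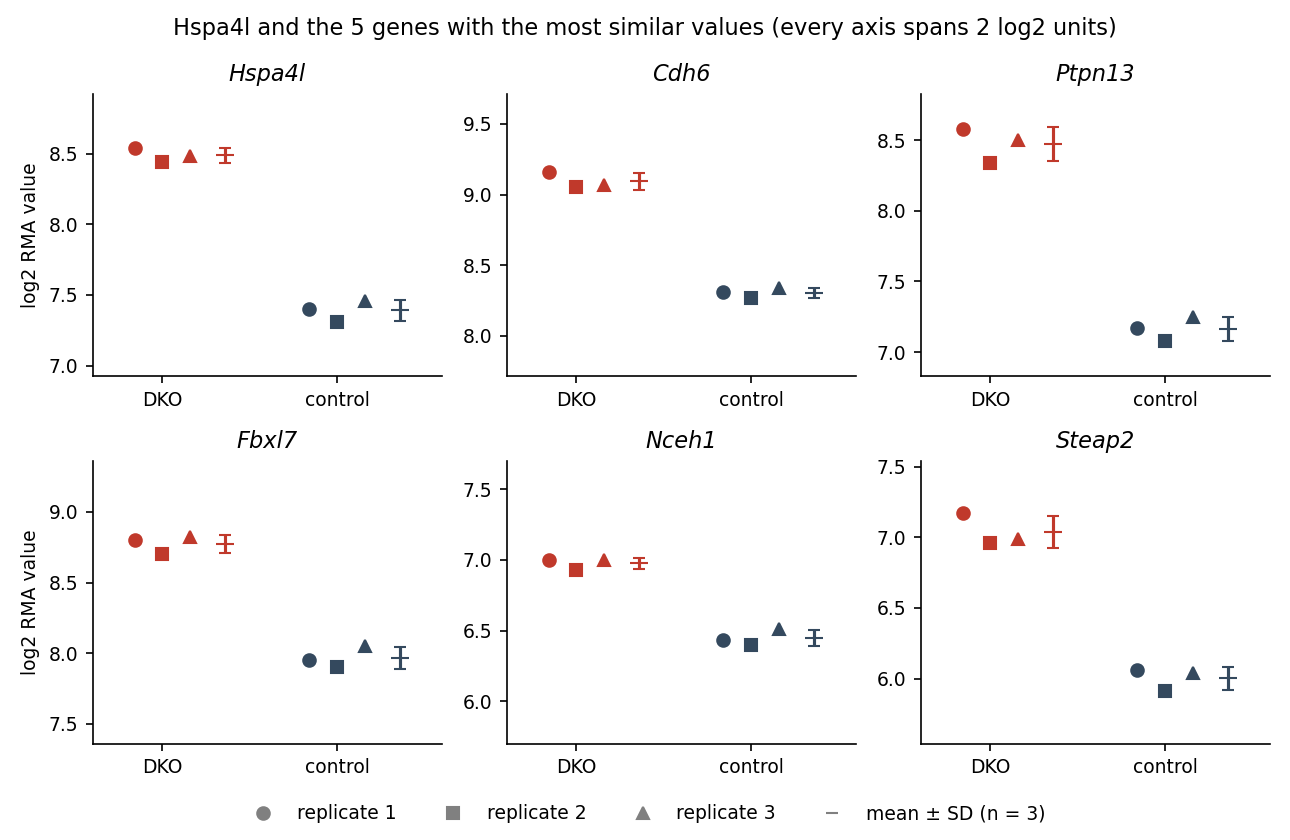
Log2 RMA values in each array for Hspa4l and the 5 genes with the highest Pearson correlation with it over the 6 arrays, DKO at the left and control at the right, with the mean ± SD (n = 3). In each panel all DKO arrays lie above all control arrays, and within DKO array 2 is the lowest.

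Markers of cell types moved in the same arrays. Over all genes tested 39.8% had a higher mean in DKO, 1.36% were called higher, 0.359% were called lower and 15.6% had an unadjusted p under 0.05. Genes that mark the choroid plexus and the hem had a higher mean in DKO for 9 of 9 tested genes, 2 of them called, with a list mean of 6.16 to 6.63 in DKO and 5.71 to 5.95 in control arrays. Intermediate progenitor markers had a lower mean for 8 of 8, 3 of them called, with a list mean of 7.90 to 8.10 in DKO and 8.34 to 8.52 in control. Neuron markers had a lower mean for 9 of 10, with 0 called (limma) and 6 lower at an unadjusted p under 0.05. Ventral telencephalon markers had a lower mean for 6 of 6, with 0 called (limma) and 2 lower at an unadjusted p under 0.05. The part of these shifts in the values of Hspa4l, Hspa5 or the ER chaperones was not tested. Endothelial markers had lower means for 7 of 7 genes and their list mean was 6.91 to 7.48 in DKO and 7.46 to 7.61 in control, with 0 called and 2 lower at an unadjusted p under 0.05. DKO 2 was the lowest array, with an endothelial list mean of 6.91 beside 7.36 in DKO 1 and 7.48 in DKO 3. It was also the lowest for meningeal markers, at 6.89 against 7.43 to 7.72 in control, and for erythroid markers, at 8.40 against 9.13 to 9.17 in control. Among the DKO arrays, DKO 2 had the lowest list mean of every partner list except small heat shock proteins. For heat shock factors and targets it stood at 7.96, beside 8.12 in DKO 1, 8.10 in DKO 3 and 7.96 to 7.99 in control. For ER chaperones it stood at 8.86, above the 8.75 to 8.78 of control. Without DKO 2, a setting chosen after these values were seen, 5 of 7 endothelial genes had a lower mean and their median difference was -0.08, against -0.27 with it. Lower means fell from 5 to 2 of 7 meningeal genes, from 4 to 1 of 4 erythroid genes and from 4 to 1 of 5 microglial genes. In the same setting 17 of 18 ER chaperones had a higher mean, with a median of 0.19, and the difference of Hspa4l was 1.12. The setting did not remove the other marker shifts. Hem and choroid plexus genes stayed higher for 9 of 9 (median 0.47), and intermediate progenitor genes stayed lower for 8 of 8 (median -0.45).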

How the data were processed

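Cortical RNA of 6 embryos was measured, 100 ng per sample on 1 array each. The deposited values are log2 signals that the authors made by RMA, per the submitters' processing notes, and the version is not given in the sources used here. The table held 41345 rows, of which 23521 had 1 gene symbol in the platform annotation, covering 22180 genes. Rows with several symbols (1814) or none (16010) were not tested. For each of 1082 genes with several rows the row with the highest mean was kept, and 5456 genes under the 25th percentile (5.02) were left out, leaving 16724.

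DKO was compared with control by limma 3.58.1 in R 4.3.3 (lmFit, eBayes, two-sided, Benjamini-Hochberg adjustment over all genes, threshold 0.05), with 4 residual and 4.44 prior degrees of freedom. The number of arrays limits the precision. The fit was checked on simulated data. Array correlations were 0.978 to 0.994, and no arrays were identical. Same-numbered DKO and control arrays deviated together with r = -0.1, 0.21 and 0.15, and the labels tie the numbers to nothing, so no block was used. Members and gene lists were chosen with earlier results of these data known. The genes named are the members, Lats1 and Lats2, up to 3 genes of smallest p per partner list, the 5 genes most like Hspa4l and its 3 neighbours on each side. Other settings were no filter, a 50th percentile filter, trended or robust variance, array weights, median centring, repeated quantile normalization, a replicate block, averaged rows and leaving out each array.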

Additional observations from a re-analysis of the deposited data

How the results depend on the processing

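The difference of Hspa4l stayed between 1.05 and 1.13 over 15 other settings. Those of the other 9 members moved by less than their residual SD in each setting run. The filter, trended or robust variance and replicate block settings leave a difference unchanged by construction, as does row averaging for a gene with 1 row. The sign of Hspa8 changed in 7 settings, and those of Hspa4 and Hspa13 in 1 each. The count of genes called higher (228) was 121 to 260 when 1 array was left out, and that of genes called lower (60) was 11 to 54. The count lower was also 134 with the 50th percentile filter, 162 with a trended variance, 123 with array weights and 24 with the replicate block, a paired fit that gave 176 higher. The replicate block changed no call of Lats1, Lats2 or the neighbour, partner and Hspa4l-like genes named by rule. Partner genes called higher, 0 by limma, were 1 with the 50th percentile filter, 4 with a trended variance, 1 with array weights and 0 to 2 with 1 array left out. Causes of these changes were not tested. No detection call was at hand, so dim rows such as that of Hspa2 were not shown to lie above background, and quantile normalization hides any change shared by all transcripts.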
